A study of Rattus norvegicus with 218 samples.

Results

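Oxtr, Hcrtr1 and Calcrl are the 3 genes described here, of 165 genes assayed in rat neurons from the vagal dorsal motor nucleus (DMV). They were taken by gene symbol, as the panel's receptors for oxytocin, for orexin and for calcitonin gene-related peptide (CGRP) and its relatives. The DMV holds the motor neurons whose axons run in the vagus nerve to the heart, the airways and the gut. NeuN, a marker of neurons, was stained to find the cells, which were cut from frozen brainstem sections by laser capture, 1 at a time or in pools of 2 to 8 cells per sample, and 168 assays were run on each sample by microfluidic RT-qPCR. The readout is the threshold cycle (Ct), the amplification cycle at which product is first seen, so that a lower Ct means more transcript and an assay with no Ct did not reach detection. All animals were adult male Sprague Dawley rats. Naive animals had no procedure. Sham animals had ketamine/xylazine anesthesia and exposure of the vessels without tying them. Animals with remote ischemic preconditioning (RIPC) had the same anesthesia and the femoral artery and vein tied off on both sides and released. Tissue of the operated animals was taken 2.5 hours later. The design asks whether transcripts of DMV neurons differ between these treatments and between the left and right DMV.

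The receptors serve 3 peptide inputs. Oxytocin is made by hypothalamic neurons, among them cells of the paraventricular nucleus that project to the vagal motor nuclei, and Oxtr encodes its receptor, a G protein-coupled receptor that raises intracellular calcium. Orexins come from neurons of the lateral hypothalamus, known for their part in wakefulness, feeding and autonomic drive, and act through Hcrtr1, which favors orexin A, and Hcrtr2, which binds orexins A and B. Calcrl encodes the calcitonin receptor-like receptor, which needs a receptor activity-modifying protein (RAMP) to reach the membrane, where the RAMP partner sets whether CGRP or adrenomedullin binds best. CGRP is carried by many visceral sensory fibers, and Calcrl is also known from blood vessels.

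After repeat runs of 5 samples were merged, 213 samples from 10 animals remained, and 186 of them had a Ct in at least 42 assays (25% of the panel) and were used. These were 81 samples from 3 naive, 62 from 4 sham and 43 from 3 RIPC animals. They comprised 98 single neurons, with a median of 69 detected assays, and 88 pools, with a median of 96. Naive replicate 3 gave 54 of the 57 naive single neurons. For 1 single neuron labelled as RIPC replicate 3, from the right DMV and with no Ct for Oxtr, the sample title begins like those of RIPC replicate 2; its animal label was kept. Camk2a, Scn2a and Rgs4, expressed widely in neurons, had a Ct in 86.7% to 98.9% of the samples of either type, and Chat, the acetylcholine-synthesizing enzyme of vagal motor neurons, in 69.4% of single neurons. The astrocyte transcript Gfap had a Ct in 80.6% of single neurons and 77.3% of pools, so the samples labelled as neurons also held a transcript of glia. None of the markers listed here for microglia, oligodendrocytes and endothelium (Pecam1, Cldn5 and Tek) was in the panel, which did hold the endothelial nitric oxide synthase Nos3.

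The 3 receptors differed widely in how often they were detected. Oxtr had a Ct in 166 of 186 samples (89.2%, 95% Wilson interval 84 to 92.9), Hcrtr1 in 80 (43%, 36.1 to 50.2) and Calcrl in 23 (12.4%, 8.38 to 17.9). These intervals cover counting error only. The median over all genes of the panel was 50.5%, and Oxtr ranked 17 of 165 genes, Hcrtr1 shared ranks 88 and 89 with another gene, and Calcrl shared ranks 135 and 136. Among 27 receptors for peptides listed for this comparison, which leave out Hcrtr2 (26.9%), Oxtr was the most often detected, above the neuropeptide Y receptor Npy2r (86%, interval overlapping that of Oxtr) and the kappa opioid receptor Oprk1 (82.8%). Hcrtr1 was level with the natriuretic peptide clearance receptor Npr3 (43%), between the gastrin-releasing peptide receptor Grpr (50%) above and the somatostatin receptor Sstr2 (38.2%) and the thyrotropin-releasing hormone receptor Trhr (37.6%) below. Calcrl was level with the ghrelin receptor Ghsr (12.4%), just under the GLP-1 receptor Glp1r (13.4%) and above the GLP-2 receptor Glp2r and the natriuretic peptide receptor Npr1 (each 6.99%).

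The raw Ct of Oxtr had a median of 13.57 cycles (9.30 to 25.12) over the samples with a value, that of Hcrtr1 16.13 (12.17 to 26.05) and that of Calcrl 15.27 (12.15 to 19.23). Assays amplify with different efficiency, so these values do not order the genes by abundance. Of all deposited values 5.01% lay above 20 cycles. Late values of this kind made up 3 of the 166 Ct values of Oxtr (1.81%), all in single neurons, and 6 of the 80 of Hcrtr1 (7.5%), 5 of them in pools. Calcrl had none, so its detections were few without being late.

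Repeat runs gave a direct view of how stable detection was. In the 5 samples that were run again, Oxtr had a Ct in both runs of 4 and in neither run of 1. Its Ct moved by -3.47 cycles in 1 sample of RIPC replicate 2, and by -0.67, -0.38 and 0.37 cycles in the samples of naive replicate 3. Hcrtr1 was found in just 1 run of 2 samples and in neither run of 3, and Calcrl in just 1 run of 3 samples and in neither of 2. No sample had Hcrtr1 or Calcrl in both runs. In these 5 samples a call of Hcrtr1 or Calcrl, present or missing, was thus less stable than one of Oxtr, which was missing in just 1. The counts of Hcrtr1 and Calcrl below, joint detection included, rest on calls with this limit. All 5 were single neurons of RIPC replicate 2 and naive replicate 3, and their merged runs gave them a second chance of detection.

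Detection of all 3 receptors moved with the number of assays that worked in a sample, the depth of these data. In single neurons split into 3 bins by that number, Oxtr went from 66.7% of the shallowest (22 of 33, median 54 assays) to 93.9% and 90.6% of the deeper bins. Hcrtr1 went from 24.2% over 36.4% to 46.9%. Calcrl had a Ct in 0 of the 33 shallowest single neurons, in 2 of 33 in the middle bin and in 9 of the 32 deepest (28.1%). Pools showed the same order, with Hcrtr1 at 31%, 41.4% and 80% and Calcrl at 0%, 10.3% and 30%, while Oxtr was at 86.2% in the shallowest pools and had a Ct in all pools of the other bins. Whether depth had a part in the differences between groups given below was not tested.

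**Figure D1:**
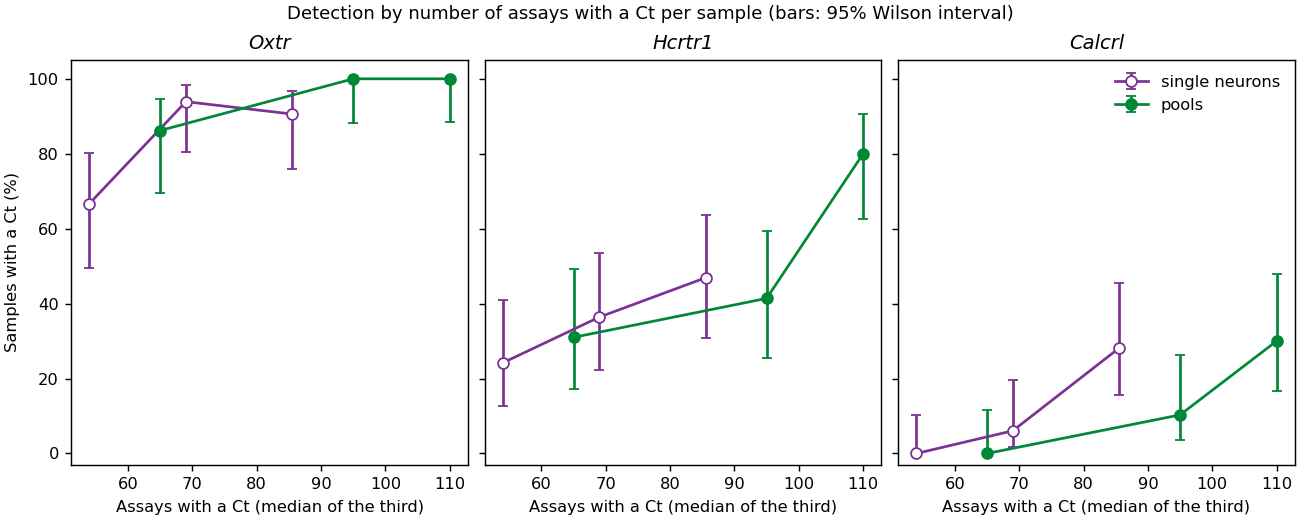
Share of samples with a Ct (y axis, %) against the number of detected assays per sample (x axis, median of each of 3 equal-sized bins) for single neurons (open, purple) and pools (filled, green); bars are 95% Wilson intervals. Calcrl was at 0% in the shallowest bin of both types and at 28.1% and 30% in the deepest.

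Detection in pools was compared between treatments with 1 value per animal, the share of its pools with a Ct. A pool holds several cells, so fewer cells with a transcript and less transcript per cell cannot be told apart in it. No gene of the panel passed limma's test at an adjusted p under 0.05 in any of the treatment contrasts (0% of 130 genes tested each; at an unadjusted p under 0.05 there were 2 genes between sham and naive, 4 between RIPC and naive and 1 between RIPC and sham animals). Hcrtr1 and Calcrl were among the genes tested and Oxtr was not.

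Oxtr was near the ceiling in pools of all treatments. In naive animals it had a Ct in 66.7% (2 of 3 pools), 90% (9 of 10) and 100% (11 of 11) of the pools of replicates 1 to 3. In sham animals it was at 100% in replicates 1, 2 and 4 and at 90.9% (10 of 11) in replicate 3. In RIPC animals it was at 87.5% (7 of 8), 100% and 100%. The animal means were 85.6% ± 17.1 (SD, n = 3), 97.7% ± 4.55 (n = 4) and 95.8% ± 7.22 (n = 3), and the groups overlapped. Since Oxtr had a Ct in 95.5% of all pools, above the 95% set as the upper limit for genes in the limma fit, it was tested by exact permutation over animals alone. The two-sided p was 0.257 between sham and naive, 0.7 between RIPC and naive and 0.714 between RIPC and sham animals, where the smallest p the design allows is 0.0286, 0.1 and 0.0286. The lowest animal, naive replicate 1, had 3 pools with a median of 48 detected assays, the lowest of the animals.

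Hcrtr1 varied more between animals of a treatment than between treatments. Its share of pools was 33.3% (1 of 3), 10% (1 of 10) and 81.8% (9 of 11) in naive replicates 1 to 3. It was 71.4% (5 of 7), 36.4% (4 of 11), 63.6% (7 of 11) and 52.9% (9 of 17) in sham replicates 1 to 4, and 25% (2 of 8), 75% (6 of 8) and 50% (1 of 2) in RIPC replicates 1 to 3. Naive animals thus held both the lowest and the highest value, and the range of each of the other treatments lay inside the naive range. The animal means were 41.7% ± 36.6 (naive), 56.1% ± 15.2 (sham) and 50% ± 25 (RIPC). In limma, sham differed from naive by 14.4 ± 17.1 percentage points (SE, adjusted p = 0.932), RIPC from naive by 8.28 ± 18.2 (adjusted p = 0.996) and RIPC from sham by -6.09 ± 17.1 (adjusted p = 0.994).

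Calcrl was found in 12 of 88 pools, and 8 of these came from sham replicates 1 and 3. Its share was 57.1% (4 of 7) in sham replicate 1 and 36.4% (4 of 11) in sham replicate 3, but 0 of 11 in sham replicate 2 and 0 of 17 in sham replicate 4, where the upper Wilson limits were 25.9% and 18.4%. Naive animals had 1 positive pool each, of 3, 10 and 11 pools. Among RIPC animals replicate 1 had 1 of 8, and replicates 2 and 3 had 0 of 8 and 0 of 2. The animal means were 17.5% ± 13.7 (naive), 23.4% ± 28.3 (sham) and 4.17% ± 7.22 (RIPC), with overlap between all groups. In limma the differences were 5.9 ± 15.3 percentage points between sham and naive (adjusted p = 0.932), -13.3 ± 16.4 between RIPC and naive (adjusted p = 0.996) and -19.2 ± 15.3 between RIPC and sham animals (adjusted p = 0.994). Median detected assays per pool were 102 and 99 in sham replicates 1 and 3 and 87 and 105 in replicates 2 and 4. Gfap had a Ct in 71.4% and 90.9% of the pools of the former and in 72.7% and 76.5% of the latter. The part of depth or of glial RNA in the split among sham animals was not tested.

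**Figure D2:**
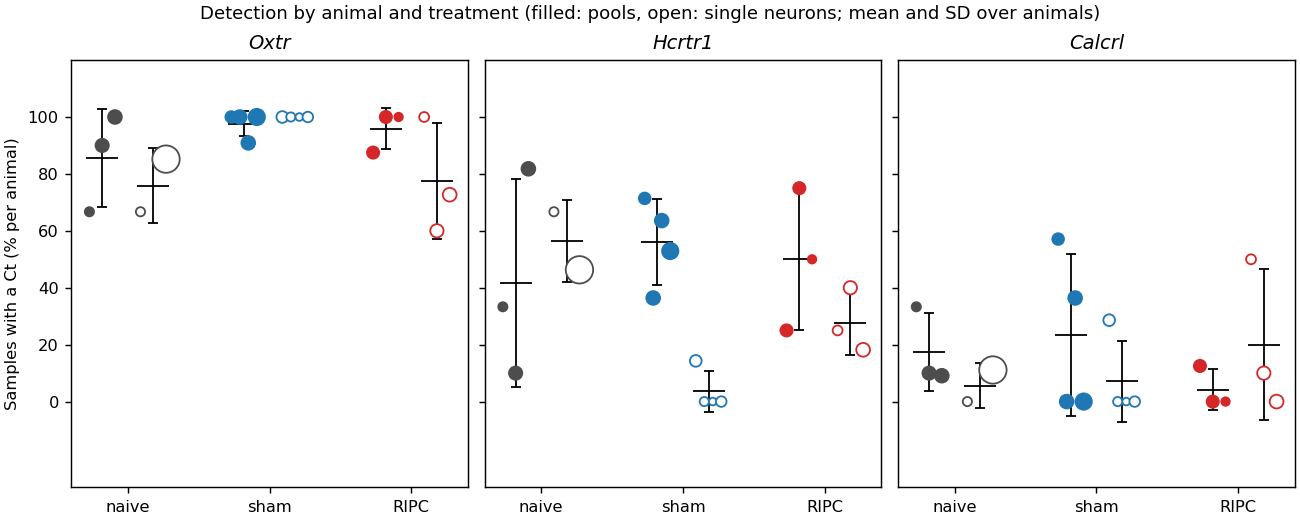
Share of samples with a Ct (y axis, % per animal) for naive, sham and RIPC animals; filled points are an animal's pools, open points its single neurons, point area grows with the number of samples, and black lines give the mean and SD over animals. Pools of Hcrtr1 spanned 10% to 81.8% among naive animals, and single neurons with Hcrtr1 were rare in sham animals.

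Single neurons gave another order for Hcrtr1. It had a Ct in 46.3% of the single neurons of naive replicate 3 (25 of 54) and in 2 of 3 of naive replicate 2, in 1 of 7, 0 of 3, 0 of 1 and 0 of 5 of sham replicates 1 to 4, and in 1 of 4, 4 of 10 and 2 of 11 of RIPC replicates 1 to 3. Over all sham single neurons this was 1 of 16 (6.25%, Wilson interval 1.11 to 28.3), against 27 of 57 in naive (47.4%, 35 to 60.1) and 7 of 25 in RIPC animals (28%, 14.3 to 47.6). The shares of naive, RIPC and sham animals did not overlap, in that order. Of the 122 genes tested in single neurons, 9.02% did not overlap between sham and naive animals, 15.6% between RIPC and naive and 4.1% between RIPC and sham, and 0.82%, which is Hcrtr1 alone, in all 3 pairs. With 2, 3 and 4 animals, non-overlap is a description. Sham differed from naive by -52.9 ± 13.8 percentage points in limma (adjusted p = 0.261), RIPC from naive by -28.8 ± 14.5 (adjusted p = 0.999) and RIPC from sham by 24.2 ± 12.1 (adjusted p = 0.847), where 0% of the 122 genes tested passed. The exact two-sided permutation p was 0.0667, 0.2 and 0.0571, of which the first is the smallest possible with 2 against 4 animals. Median depth was 71, 68.5 and 68 detected assays per single neuron in naive, sham and RIPC animals. Other transcripts also moved between these treatments, with Gfap in 73.7%, 93.8% and 88% of the single neurons, Rgs4 in 78.9%, 93.8% and 100% and Gad1 in 31.6%, 25% and 52%, while Chat was at 68.4%, 68.8% and 72%. Their part in the differences of Hcrtr1 and Oxtr was not tested. No sham animal had more than 7 single neurons, and the 2 naive animals include 1 with 3. Whether the treatment differences themselves differ between pools and single neurons was not tested.

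Oxtr had a Ct in all 16 single neurons of sham animals, in 84.2% of naive (48 of 57) and in 72% of RIPC single neurons (18 of 25). Per animal this was 66.7% and 85.2% for naive replicates 2 and 3, 100% for each sham animal, and 100%, 60% and 72.7% for RIPC replicates 1 to 3. Naive and sham animals did not overlap, as for 9.02% of the genes tested, and 1 of the 2 naive animals had 3 single neurons. A RIPC animal matched the sham animals. The sham share was higher than the naive share by 24.1 ± 14.6 percentage points (limma adjusted p = 0.795, exact permutation p = 0.0667). The RIPC share was lower than the sham share, at -22.4 ± 12.9 (adjusted p = 0.847, exact permutation p = 0.143), or -20 without the neuron whose title begins like those of RIPC replicate 2. The RIPC share differed from the naive share by 1.65 ± 15.4 (limma adjusted p = 0.999), or by 4.07 without that neuron. Calcrl was found in 6 of 57 single neurons of naive animals (10.5%), 2 of 16 of sham (12.5%) and 3 of 25 of RIPC animals (12%). Of these 11 single neurons 6 came from naive replicate 3, 2 each from sham replicate 1 and RIPC replicate 1, and 1 from RIPC replicate 2. In 3 of the 11 Calcrl had a Ct in just 1 of 2 runs. Among these was the neuron of RIPC replicate 2, with 36 and 44 detected assays in its runs. No sham neuron was run again. RIPC replicate 1 thus had Calcrl in 2 of its 4 single neurons.

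The level of a transcript, where it had a Ct, was taken as minus Ct after subtracting the sample's median Ct over the 35 genes detected most often, so that 1 unit is 1 cycle, close to a doubling. Levels are compared here within a gene only. Oxtr is itself among these 35 genes, so the centring draws its level toward 0. How far this narrowed its differences between groups was not tested. Oxtr was the one receptor with enough positive pools for a test between treatments. Its mean level in pools was -0.35, 0.48 and 0.19 in naive replicates 1 to 3, 0.57, 0.27, 0.01 and 0.41 in sham replicates 1 to 4, and 1.72, 0.53 and -0.21 in RIPC replicates 1 to 3. RIPC replicate 1 had the highest value and RIPC replicate 3, with 2 pools, the second lowest, so the RIPC animals spanned nearly the whole range. Sham differed from naive by 0.21 ± 0.55 cycles (SE, limma adjusted p = 0.984), RIPC from naive by 0.57 ± 0.59 (adjusted p = 0.931) and RIPC from sham by 0.36 ± 0.55 (adjusted p = 0.977), where 0% of 99 genes passed in each contrast (0, 4 and 3 genes at an unadjusted p under 0.05). RIPC replicate 1 had the fewest detected assays per pool after naive replicate 1, with a median of 56.5, and without it the difference between RIPC and naive was 0.05. Its pools also had few detections of Chat (2 of 8), Gfap (2 of 8) and Th (1 of 8), and Rgs4 in 5 of 8, where the pools of the other RIPC animals had these transcripts in 75% to 100%. The part of depth or of these transcripts in the level of Oxtr was not tested.

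Hcrtr1 levels in pools had a mean of -3.62 over the 9 positive pools of naive replicate 3, and were -2.47 and -2.45 in the single positive pools of naive replicates 1 and 2. They were -2.82, -4.15, -3.26 and -5.03 in sham replicates 1 to 4, with 4 to 9 positive pools each. In RIPC replicates 1 to 3 they were -6.30 (2 pools), -3.44 (6 pools) and -2.87 (1 pool). The lowest means, those of RIPC replicate 1 and sham replicate 4, each held late values, the pools at -8.87 in the former and at -9.43 and -8.13 in the latter having Ct above 20. A pool of naive replicate 3 at -8.40 and a pool of sham replicate 2 at -5.07 also had Ct above 20. With a level in at least 2 pools of 1 naive animal alone, no test between treatments was made. Calcrl levels ran from -5.22 to -0.63 in the 8 sham pools and were -2.05, -2.16 and -2.64 in the naive pools and -2.07 in the RIPC pool, so the values of the other treatments lay inside the sham range.

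**Figure D3:**
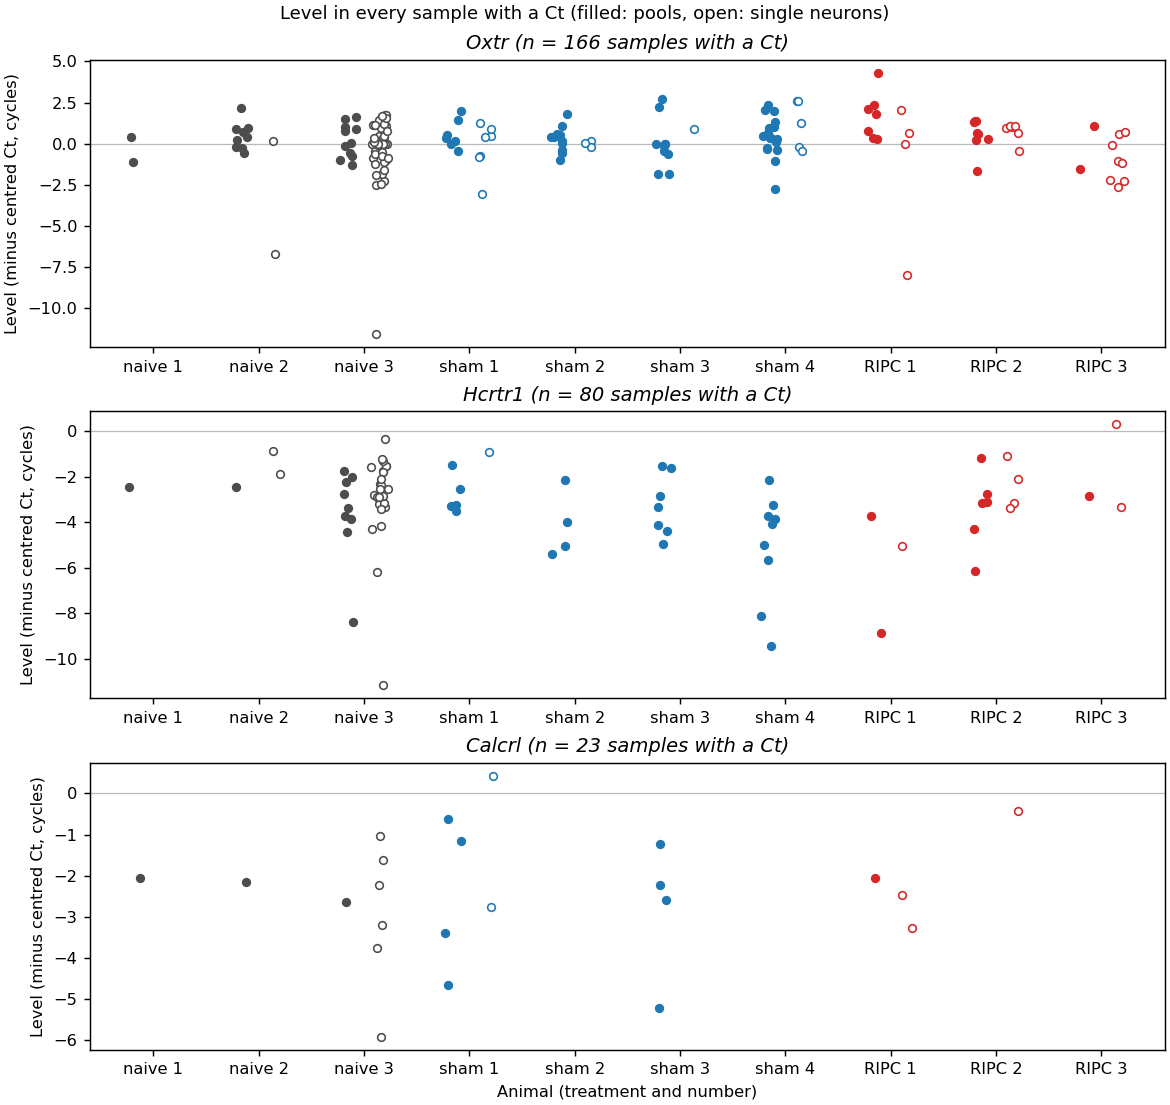
Level (y axis, minus centred Ct in cycles) of each receptor in every sample with a Ct, by animal (x axis); filled points are pools and open points single neurons. Oxtr levels of all animals overlap around 0 with 3 single neurons below -6, where Oxtr is itself among the genes used for centring. Calcrl points are missing for sham 2, sham 4 and RIPC 3.

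Sides of the DMV were set against each other inside 9 animals, those with 2 or more samples per side, over single neurons and pools together. No receptor passed the test by side, and 0% of 132 genes passed (6 with an unadjusted p under 0.05). Hcrtr1 differed, left minus right, by a mean of -7.36 ± 6.06 percentage points (SE, limma adjusted p = 0.979, exact sign-flip permutation p = 0.234), with the left lower in 5 animals and higher in 3. The widest differences, left minus right, were -26.2 in naive replicate 3 and -25 in sham replicate 3, and the opposite direction reached 16.7 in RIPC replicate 1 and 11.9 in naive replicate 2. Oxtr differed by -0.508 ± 6.59 percentage points (adjusted p = 0.994), from -33.3 in RIPC replicate 2 to 42.9 in RIPC replicate 3, whose right samples had Oxtr in 57.1% (4 of 7). Without the neuron whose title begins like those of RIPC replicate 2, this was 66.7% (4 of 6), the difference in RIPC replicate 3 was 33.3 and the mean over animals -1.57 (adjusted p = 0.989). Calcrl differed by 4.21 ± 5.66 (adjusted p = 0.979, exact p = 0.281). It was higher on the left in 5 animals, lower in sham replicate 1 alone by 16.7 points, and equal at 0 in 3.

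The difference between sides was also compared between treatments. For Hcrtr1 left minus right was -7.16 ± 27 percentage points in naive (SD, n = 2), -10 ± 13 in sham (n = 4) and -3.97 ± 18 in RIPC animals (n = 3), the same sign in each and smaller than its spread. For Oxtr it was 7.54 ± 7.29, -3.12 ± 6.25 and -2.38 ± 40.1, and for Calcrl 8.52 ± 8.16, -1.04 ± 12 and 8.33 ± 8.33. The RIPC mean of Oxtr includes 42.9 for RIPC replicate 3. That value was 33.3 without the neuron whose title begins like those of RIPC replicate 2, which makes the mean more negative. Limma's F test of the treatments gave an adjusted p of 0.997 for each receptor, and 0% of 132 genes passed (3 with an unadjusted p under 0.05). By level, Oxtr differed between sides by -0.07 ± 0.28 cycles over 9 animals (limma adjusted p = 0.947), and Hcrtr1 by 0.19 ± 0.38 over the 6 animals with positive samples enough on each side (adjusted p = 0.918), with 0% of 113 genes passing (3 with an unadjusted p under 0.05). Calcrl had too few positive samples for a test of level by side.

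**Figure D4:**
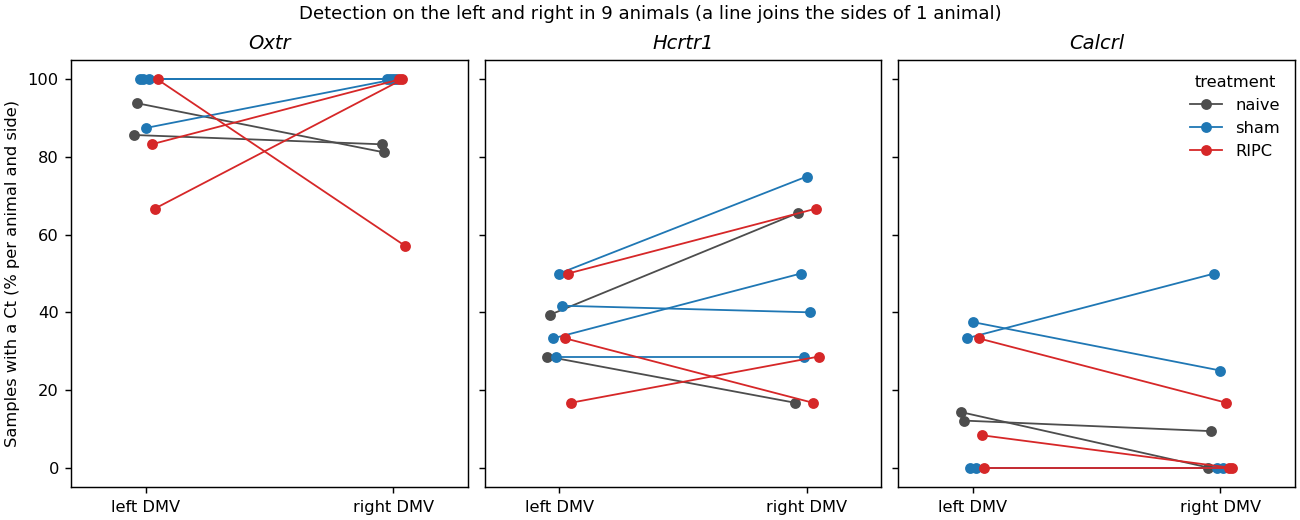
Share of samples with a Ct (y axis, % per animal and side) in left and right DMV; each line joins the sides of 1 of 9 animals, colored by treatment, with small horizontal offsets. Lines of all 3 receptors run in both directions, and RIPC replicates 2 and 3 cross for Oxtr.

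Pools were set against single neurons within the 8 animals with at least 2 of each. Of 132 genes 17.4% passed (46 with an unadjusted p under 0.05), all 23 more often detected in pools, and no receptor was among them. Hcrtr1 had a Ct more often in pools in 6 of 8 animals, by 31.8 to 57.1 percentage points in those 6. RIPC replicate 1 showed no difference, and naive replicate 2 went the other way by -56.7, with 1 of 10 pools against 2 of 3 single neurons. The mean was 24 ± 10.9 percentage points (SE, limma p = 0.0419, adjusted p = 0.123, exact sign-flip permutation p = 0.109), and without naive replicate 2 it was 35.5 with an adjusted p of 0.0257, where 13 genes in all passed. Oxtr differed by 11.6 ± 7.81 (adjusted p = 0.279, exact p = 0.125), with no difference in 3 sham animals that had it in every sample. Calcrl differed by -1.37 ± 7.93 (adjusted p = 0.899, exact p = 0.812), with higher shares in pools in 2 animals and lower shares in 3.

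Across numbers of cells per sample, Hcrtr1 had a Ct in 35.7% of single neurons, 53.8% of pools of 2 to 3 cells, 39.1% of pools of 4 and 56.4% of pools of 5 to 8. Oxtr went from 83.7% over 92.3% and 95.7% to 97.4%, and Calcrl was at 11.2%, 11.5%, 4.35% and 20.5%. Median detected assays rose from 69 over 92 and 98 to 101. By level, Oxtr was higher in pools by 1.03 ± 0.50 cycles over 8 animals (limma adjusted p = 0.483, exact p = 0.0859), with 0% of 89 genes passing (8 with an unadjusted p under 0.05). The widest differences, 3.75 in naive replicate 2 and 3.05 in RIPC replicate 1, came from animals in which 1 single neuron had an Oxtr Ct above 20, and without Ct values above 20 the mean was 0.29 (adjusted p = 0.743).

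Joint detection is given as counts, with no test, since cells of an animal are not replicates. Of 98 single neurons 47 had Oxtr alone of the receptors, 25 had Oxtr and Hcrtr1, 7 had Oxtr and Calcrl, and 3 had all 3. Hcrtr1 alone was found in 7 and Calcrl alone in 1, no single neuron had Hcrtr1 and Calcrl without Oxtr, and 8 had none. Of 88 pools 38 had Oxtr alone, 34 Oxtr and Hcrtr1, 3 Oxtr and Calcrl, and 9 all 3, and 2 had none. At least 1 receptor transcript was thus present in nearly every sample, in most through Oxtr.

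Oxtr and Hcrtr1 shared 28 single neurons, where the product of their shares gives 29.3, and 43 pools, where it gives 43. With the product taken inside each animal, the count for single neurons was 28.5. Oxtr and Calcrl shared 10 single neurons against 9.2 and all 12 pools with Calcrl against 11.5. Hcrtr1 and Calcrl shared 3 single neurons against 3.93. In pools they shared 9 against 6.14, or 6.9 with the product inside animals. Among pools above the median depth the count was 9 against 8, and among the others 0 against 0.295.

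**Figure D5:**
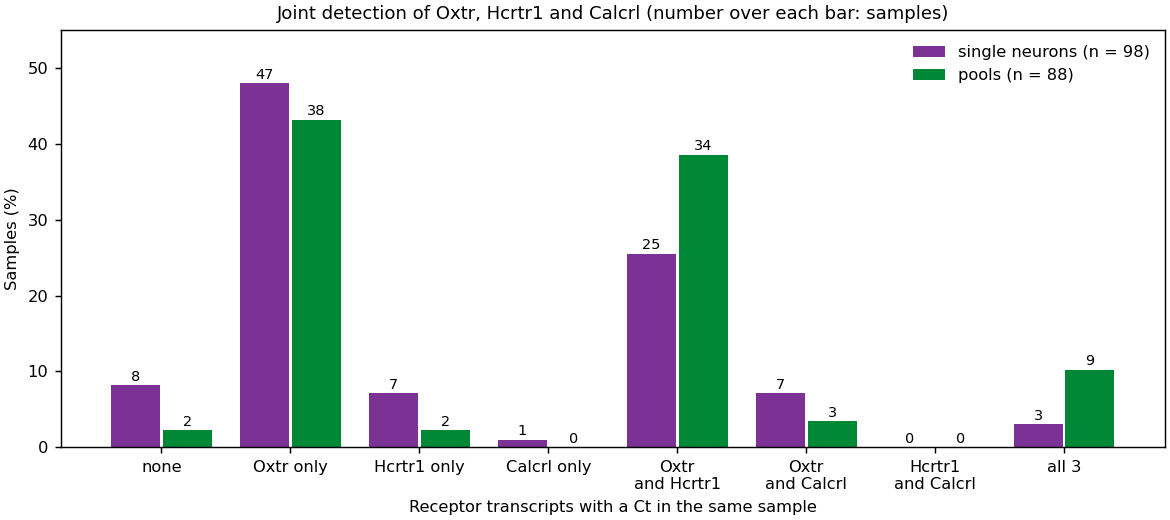
Share of samples (y axis, %) by the combination of receptor transcripts with a Ct in the same sample (x axis), for single neurons (purple) and pools (green); the number over a bar is its count of samples. Oxtr alone (47 single neurons, 38 pools) and Oxtr with Hcrtr1 (25 and 34) make up most samples.

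Of 15 other ligand and receptor genes listed for these peptide systems, 2 were in the panel, Oxt and Hcrtr2. Oxt, which encodes oxytocin itself, had a Ct in 0 of 98 single neurons, which allows a share of up to 3.77% by the Wilson interval, and in 1 of 88 pools, a pool that also had Oxtr. Hcrtr2 had a Ct in 17 single neurons (17.3%) and 33 pools (37.5%), less often than Hcrtr1 in both. By treatment these single neurons were 13 of 57 naive (22.8%), 0 of 16 sham and 4 of 25 RIPC (16%), in the order of Hcrtr1. By animal means, naive (12%) lay under RIPC (18%), since naive replicate 2 had Hcrtr2 in 0 of 3. None of the comparisons called Hcrtr2. Its closest was pools against single neurons, at 24.8 ± 8.63 percentage points (limma adjusted p = 0.0592). Of the 17 single neurons with Hcrtr2, 13 also had Hcrtr1 (76.5%), where the product of the shares gives 6.07, and of the 81 without Hcrtr2, 22 had Hcrtr1 (27.2%). The excess was present in the shallower single neurons (3 against 0.84) and the deeper ones (10 against 6.12), and inside animals (13 against 7.25). Most of it came from naive replicate 3, with 11 against 6.02, and the other animals together had 2 against 1.23. In pools, 20 held both against 16.9, but 1 against 2.07 in the shallower and 19 against 18.9 in the deeper pools, and 20 against 18.7 inside animals.

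The genes most like each receptor in detection over the 98 single neurons were ranked by the phi coefficient, the correlation of present and absent calls, among 116 genes. For Hcrtr1 they were Hcrtr2 (phi 0.39), the G protein signaling regulator Rgs2 (0.383) and Chat (0.356), against a median of 0.0585. Inside naive replicate 3, with 54 neurons, phi was 0.433, 0.349 and 0.469. For Calcrl they were the capsaicin receptor Trpv1 (0.459), the cation channel Trpc6 (0.433) and the endothelial nitric oxide synthase Nos3 (0.409), against a median of 0.141, each with 6 shared neurons of the 11 with Calcrl. Inside naive replicate 3 phi was 0.438, 0.474 and 0.7. For Oxtr the highest values were low, with the nicotinic receptor subunit Chrnb2 (0.28), the muscarinic receptor Chrm1 (0.248) and the heat shock factor Hsf2 (0.246), and for Chrm1 phi was -0.0466 inside naive replicate 3. The points share animals and depth. Calcrl detection itself correlated with the number of other assays detected at r = 0.504 over single neurons, Hcrtr1 at 0.236 and Oxtr at 0.229, values given as a description.

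Hcrtr1 was unevenly spread over neurons with and without Chat. It had a Ct in 32 of 68 single neurons with Chat (47.1%, Wilson interval 35.7 to 58.8) and in 3 of 30 without (10%, 3.46 to 25.6), and inside naive replicate 3 in 23 of 37 and 2 of 17. Median depth was 72.5 detected assays with Chat and 64 without. For Oxtr the shares were 85.3% with and 80% without Chat, a direction that turned inside naive replicate 3 (83.8% and 88.2%), and for Calcrl 13.2% and 6.67% (13.5% and 5.88% inside that animal). Hcrtr1 was at 27.5% of the single neurons with Gad1 or Gad2, which make GABA, and at 44.7% of those without, with median depths of 71 and 68 assays, and inside naive replicate 3 at 36.4% and 53.1%. Oxtr was at 80.4% with and 87.2% without Gad1 or Gad2, and this direction also turned inside naive replicate 3 (86.4% and 84.4%). Oxtr was at 90.9% of the single neurons with Th, the first enzyme of catecholamine synthesis, and at 74.4% of those without, while Calcrl was at 16.4% and 4.65%. Neurons with Th were deeper, at a median of 75 assays against 63, and inside naive replicate 3 the shares were 93.1% and 76% for Oxtr and 17.2% and 4% for Calcrl. For the activity gene Fos, Calcrl was found in 4 of 14 single neurons with and 7 of 84 without, and Hcrtr1 in 7 of 14 and 28 of 84, where median depth was 96.5 with Fos and 68 without. Inside naive replicate 3 Calcrl was found in 2 of 7 neurons with and 4 of 47 without Fos, and Hcrtr1 in 3 of 7 and 22 of 47, so that its direction turned.

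Gfap stood beside every Calcrl detection. All 11 single neurons and all 12 pools with Calcrl also had a Ct for Gfap, while Calcrl had a Ct in 0 of the 19 single neurons and 0 of the 20 pools without Gfap, with upper Wilson limits of 16.8% and 16.1%. In pools this was not particular to Gfap. All 12 pools with Calcrl also had Chat and Th, with Calcrl in 0 of 16 pools without Chat and 0 of 22 without Th. Those pools were shallow too, at medians of 59 and 68.5 detected assays. Among single neurons Calcrl had a Ct in 2 of 30 without Chat and 2 of 43 without Th. Oxtr was at 84.8% with and 78.9% without Gfap in single neurons, and Hcrtr1 at 36.7% and 31.6%. In pools Hcrtr1 was at 58.8% with and 25% without. Samples without Gfap were shallower, with medians of 61 detected assays against 73 in single neurons and 56.5 against 101.5 in pools, and Calcrl was at 0% in the shallowest bins of both types, whose medians were 54 and 65 assays. Per the methods, caps were inspected after capture and those with other cells than neurons were discarded. The part of glial RNA or of depth in these counts was not tested.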

How the data were processed

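Ct values of 168 assays in 218 columns were used as deposited by the authors, who exported them without normalization from the microfluidic instrument after preamplification of cDNA. Which chip a sample was run on, and the primer sequences, were not used here. Groups, animals, sides and cell numbers came from the labels. All 165 symbols matched RefSeq's rat gene table when case was ignored. Members and lists were chosen with earlier results of these data known.

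Duplicate assays and second runs of 5 samples were averaged, a gene counting as detected if either run had a Ct. Samples with a Ct in at least 25% of assays were kept, the limit that leaves 190 columns. At 50%, a limit also named in the methods, 84 columns remain. Level was minus Ct after subtracting the sample's median over the 35 most widely detected genes, Oxtr among them. No imputation was used, and a fit of level left out animals without a value.

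The animal was the replicate in all tests except an alternative, Fisher's exact test over pools, which treats the pools of an animal as independent. Limma 3.58.1 in R 4.3.3 was fitted over all genes with a Ct in 10% to 95% of the samples compared (level: a value from at least 2 detected samples, in at least 2 animals per treatment or 4 pairs), two-sided, with Benjamini-Hochberg adjustment. For members, exact permutation over animals was added (scipy 1.17.1). The fits were also run on simulated data with normal noise. Shares of few samples are bounded and tied, unlike such noise, so no statement on power is drawn from that run. Sides and sample types were compared within animals. Named genes were the members, pathway genes in the table, the peptide receptors nearest in detection, and the 3 genes with the highest phi among those detected in 10% to 90% of single neurons. Alternatives changed the limit on assays, runs, sample type, scale, weights, filter, centring and the set of animals, with the animal number as a block. Levels without Ct above 20, and values without the neuron whose title and animal label differ, were added after seeing the data.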

Additional observations from a re-analysis of the deposited data

Results flagged for a closer look

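Among 17 groups of animals looked at for a value far from the rest, 4 had one, where chance gives about 1 in 20. Oxtr had a Ct in 90.9% of the pools of sham replicate 3, against 100% in the other sham animals. Hcrtr1 was found in 14.3% of the single neurons of sham replicate 1, that is 1 of 7, and in none of those of the other sham animals. Calcrl was found in 28.6% of the single neurons of sham replicate 1 and in none of the other sham single neurons. The left minus right difference of Calcrl was -16.7 percentage points in sham replicate 1, where the median over 9 animals was 2.75. In the first 3 the other sham animals were tied at 100% or 0%, so that any animal off the tie gives such a value, and the rate of 1 in 20 does not apply to them.

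The 27 samples with too few assays for the comparisons, with a median of 30 detected assays, still had a Ct for Oxtr in 70.4% (19 of 27). Hcrtr1 had a Ct in 3 of them and Calcrl in 0.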

How the results depend on the processing

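No receptor difference passed its test as reported, and of 392 values under the alternatives 353 kept their direction and their side of the threshold, 37 turned direction without being called, and 2 were called. The calls were Hcrtr1 in pools against single neurons without naive replicate 2 (35.5 percentage points, adjusted p = 0.0257) and Oxtr by level without centring (2.18 cycles, adjusted p = 0.0115), where whole samples differ in Ct. The cause of the turned directions was not tested.

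With the 50% limit the share of samples with a Ct was 96.5% for Oxtr, 60% for Hcrtr1 and 22.4% for Calcrl, sham against naive was -10 percentage points for Calcrl and -0.14 cycles for Oxtr, RIPC against sham was 16.1 for Hcrtr1 and 2.22 for Calcrl, and left minus right was 7.14 for Oxtr. In single neurons alone, sham against naive was -52.9 for Hcrtr1, RIPC against naive -28.8 for Hcrtr1 and 14.4 for Calcrl, RIPC against sham 24.2 for Hcrtr1, 12.9 for Calcrl and -0.85 cycles for Oxtr, and left minus right 10.3 for Hcrtr1 and 1.28 points and 1.24 cycles for Oxtr. With single neurons and pools together, RIPC against naive was -1.7 for Hcrtr1 and RIPC against sham -0.14 cycles for Oxtr. Without a limit on assays, left minus right was 5.82 for Oxtr and -0.10 cycles for Hcrtr1, and sham against naive -0.12 cycles for Oxtr. Left minus right of Oxtr was 3.03 with animals weighted by samples, 0.165 with first runs alone and 0.16 cycles without centring, and pools minus single neurons of Calcrl was 0.113 with first runs alone.

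The numbers of genes called were 0 as reported for every comparison but pools against single neurons by share. With the 50% limit they were 1 for RIPC against naive by share and 0 for pools against single neurons. By level, with 1 detected pool as enough, RIPC against naive and RIPC against sham each had 1, and, for pools against single neurons by level, 11 without centring and 2 without Ct above 20. None of the receptors was among these except Oxtr among the 11.

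Leaving out 1 animal gave these ranges, with the animals whose absence turned the direction. For sham against naive it was -1.48 to 34.4 percentage points for Hcrtr1 (naive replicate 2), -5.35 to 13.8 for Calcrl (sham replicate 1) and -0.02 to 0.40 cycles for Oxtr (naive replicate 1). For RIPC against naive it was -7.58 to 28.3 for Hcrtr1 (naive replicate 2, RIPC replicate 2), and for RIPC against sham -4.17 to 2.27 for Oxtr, -18.6 to 6.41 for Hcrtr1 and -0.16 to 0.80 cycles for Oxtr (each RIPC replicate 1). For left minus right of Oxtr it was -5.93 to 3.6 points (sham replicate 3, RIPC replicates 1 and 2) and -0.23 to 0.08 cycles (naive replicates 2 and 3). Single animals also moved differences that kept their direction, Oxtr by share from 0.833 (without naive replicate 1) to 17.5 (naive replicate 3) for RIPC against naive and from 2.73 to 19.4 (the same animals) for sham against naive, and Calcrl from -27 (sham replicates 2 or 4) to -7.95 (sham replicate 1) for RIPC against sham and from -17.5 (naive replicate 3 or RIPC replicate 1) to -5.38 (naive replicate 1) for RIPC against naive. For pools minus single neurons it was -5.65 to 3.79 for Calcrl (RIPC replicate 1) and 19.3 to 35.5 for Hcrtr1. Oxtr there ranged from 7.56 to 15.1 points and from 0.64 to 1.28 cycles. Left minus right ranged from 2.65 to 6.82 points for Calcrl, and for Hcrtr1 from -10.4 to -5 points and from 0.01 to 0.53 cycles. The genes called for pools against single neurons ranged from 5 (without sham replicate 1) to 56 (without RIPC replicate 1), against 23. Without naive replicates 2 or 3 they were 13, and without sham replicate 4 or RIPC replicate 2 they were 12.

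The animal numbers in the labels name different animals in each treatment. Deviations of same-numbered animals correlated from -0.326 to 0.366, 5 of 9 pairs were over 0.1, and the same 5 matched best, among them all 3 pairs of replicates 1 (0.214, 0.252 and 0.162). Since not every pair was over 0.1, the numbers were not taken to pair the animals. With the replicate block 0 genes were called in each treatment contrast, and the Hcrtr1 differences were 15.4, 8.28 and -7.14 and those of Calcrl 13.7, -13.3 and -27 percentage points. At these numbers of animals and assays, a single missing Ct moves the share of a small animal by a wide margin. Fisher's exact test over pools, which treats the pools of an animal as independent, called none of the receptors.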
